A study of Mus musculus with 6 samples.

Results

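Amino acids cross cell membranes through families of solute carriers, and the genes of solute carrier families 1, 3, 6, 7, 36, 38 and 43 were examined here in control and senescent mouse adult fibroblasts (MAFs). The genes were taken by name and annotation from the count table, as protein-coding genes called Slc1a, Slc3a, Slc6a, Slc7a, Slc36a, Slc38a or Slc43a and a number. This gave 59 genes out of 43346 in the table. *Slc6a20a* and *Slc6a20b*, whose names end in a letter, and *Slc6a16*, annotated as a long noncoding RNA, fall outside this definition.

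Exchange of amino acids across the plasma membrane supplies protein synthesis, glutathione synthesis and the sensing of nutrients by the kinase mTORC1. Family 3 holds the heavy chains, glycoproteins that bring the light chains of family 7 to the cell surface, where the pair exchanges large neutral amino acids, cationic amino acids or cystine. Family 1 carries glutamate or small neutral amino acids with sodium, and family 38 carries glutamine and other neutral amino acids. Family 36 moves small amino acids, some of its members with protons, and family 43 carries large neutral amino acids. Family 6 carries neurotransmitters, taurine, creatine and, in kidney and gut, neutral amino acids. In cultured fibroblasts, cystine uptake feeds glutathione, and several carriers are targets of the transcription factor ATF4 when amino acids are short.

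MAFs are primary cells grown from ear tissue of female adults of the mouse strain C57BL6/J, and the labels name no engineered allele in either group. The 3 senescent samples had received 20 Gy of x-ray irradiation and were cultured for 21 more days, and the 3 control samples were sham irradiated. Every sample was kept at 3% oxygen and treated with 100 nM dexamethasone for 2 hours to set the circadian clocks to one phase, and RNA was collected 12 hours later, so each value describes 1 time point. The sources used here do not say whether the 3 samples of a group came from separate mice or cultures, so the p-values measure the spread between these samples, which may be technical.

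Total counts ranged from 50288454 to 82229553 per library, with the 2 deepest libraries in the senescent group. Values are CPM, counts scaled to library size with edgeR's TMM method, and a count of 0 allows up to 3 counts, or 0.0572 CPM as a mean over control and 0.0425 CPM over senescent libraries. These limits cover counting error only. Differences between groups were tested by the quasi-likelihood method of edgeR, and every adjusted p is a Benjamini-Hochberg value over the 17589 genes that passed the filter on low counts. With 3 libraries a side, exact permutation of the labels for a single value reaches no p below 0.1. In the senescent libraries *Cdkn1a*, the cell cycle inhibitor p21, rose from 123 ± 2.01 to 619.5 ± 16.3 CPM and *Mki67*, a proliferation marker, fell from 589 ± 17.3 to 9.60 ± 1.49 CPM (SD, n = 3 per group). Of the senescent libraries, replicate 3 stood apart from replicates 1 and 2, which were closer to each other, and the transporter calls that change without it are given with it left out.

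Of the 59 transporter genes, 43 passed the filter, 15 had counts in some library but stayed below it, and *Slc7a12* had 0 counts in every library. Among the 43, 34 differed (70.3% of all tested genes did) at an adjusted p under 0.05. Of these, 21 were higher in senescent cells (36.2% of all tested genes were) and 13 were lower (34.1%). By the limit in the study's methods, which takes p below 0.05 before adjustment together with more than a 2-fold difference, 18 of the 43 passed against 30.1% of all tested genes. Of these, 13 were higher against 17.8% of all tested genes and 5 were lower against 12.3%. However, 9 of the 43 did not reach the filter level of 0.173 CPM in every control library. They entered the test through their senescent values, so a difference was built into them. Among the 34 that were over that level in every control library, 12 were higher (30.9% of the 15644 such genes) and 13 were lower (38.4%) at an adjusted p under 0.05, and 4 were higher (10.4%) and 5 lower (13.8%) by the methods limit. These shares lay near the background, and the median log2 fold change of the 34 was -0.0017, beside -0.09 over the 15644 genes. Without regard to a test, all 3 senescent libraries lay above all 3 control libraries for 20 of the 43 (38.4% of all tested genes) and below them for 14 (37.0%). The 20 include all 9 genes that entered the test through their senescent values, so part of that count was built in. In bulk samples, fewer cells that express a gene and less of its RNA per cell cannot be told apart.

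**Figure D1:**
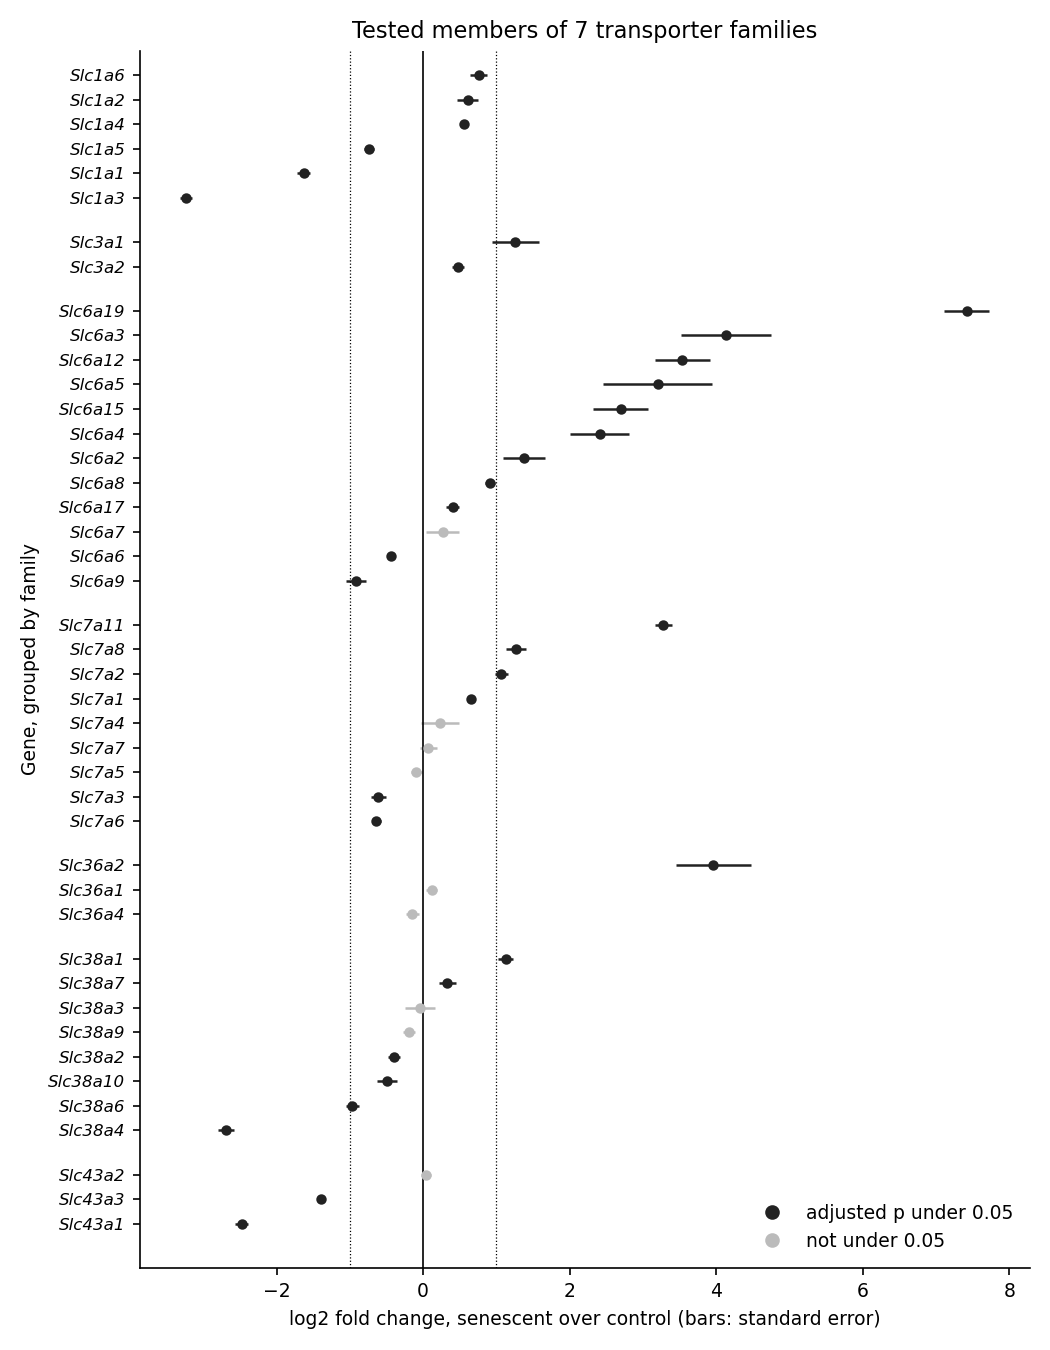
Log2 fold change (senescent over control) of the 43 tested transporter genes, ordered within each family, with bars for the standard error of the edgeR fit. Black points had an adjusted p under 0.05, grey points did not, and dotted lines mark a fold change of 2 in each direction. Values ran from -3.23 for *Slc1a3* to 7.42 for *Slc6a19*.

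Levels of different genes were compared as CPM per kb of gene model, a length-scaled level. On this scale *Slc6a6*, the taurine transporter, was the highest in both groups, at 82.7 ± 1.19 in control and 60.8 ± 2.17 in senescent cells (SD, n = 3 per group). *Slc38a2*, a sodium-coupled carrier of small neutral amino acids including glutamine, was the second in control cells, at 73.2 ± 1.97, and *Slc3a2*, the common heavy chain, was the second in senescent cells, at 57.5 ± 5.44. The 6 highest genes held 64.6% of the summed length-scaled level of all 59 in control and 66.2% in senescent cells. *Slc7a6* and *Slc1a5* were among these 6 in control cells only, and *Slc6a8* and *Slc1a4* in senescent cells only. In senescent cells *Slc3a2* and *Slc38a2* did not differ beyond their spread, at 57.5 ± 5.44 and 55.7 ± 5.60.

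**Figure D2:**
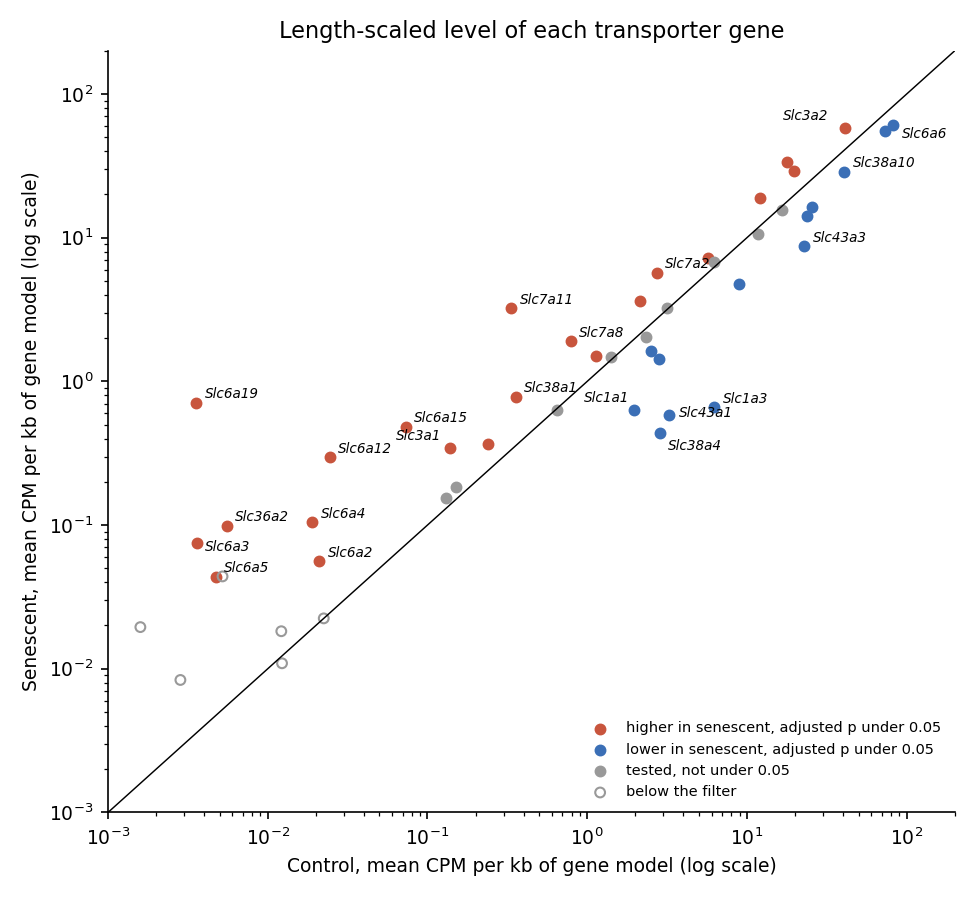
Mean length-scaled level (CPM per kb of gene model, log scales) of each transporter gene with counts in both groups, control on the horizontal and senescent on the vertical axis, n = 3 per group. The line marks equal levels. Of the genes averaging at least 100 counts, *Slc6a19* and *Slc7a11* lie furthest above it. *Slc1a3*, *Slc38a4*, *Slc43a1*, *Slc1a1* and *Slc43a3* lie furthest below it, and the most abundant genes lie close to it. Genes with fewer counts, such as *Slc6a3* and *Slc36a2*, also lie far above it.

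*Slc7a11* (ENSMUSG00000027737, chromosome 3 from 49892526 to 50443614 of mm10) encodes the light chain that takes up cystine in exchange for glutamate, and it had the largest increase among transporters with a mean of at least 100 counts in control and senescent libraries alike. Its level was 4.77, 4.30 and 4.88 CPM in control replicates 1, 2 and 3 and 41.6, 42.1 and 51.8 CPM in the senescent ones in the same order. All senescent values lay above all control values, with replicate 3 the highest of the senescent libraries. The log2 fold change was 3.28 ± 0.12 (SE; edgeR adjusted p = 1.83e-07). An antisense transcript within the gene's span had at most 18 counts in any library, beside 2303 to 4376 counts of *Slc7a11* in the senescent libraries.

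RefSeq promoter windows of GRCm38.p6 (250 bases before the start site to 50 after) were found for 41 of the 59 genes, and 1 window per gene was used, the nearest to the annotated 5′ end. They were searched on both strands for the E-box CACGTG, which BMAL1 and CLOCK bind, for the AP-1 site TGACTCA (reverse complement TGAGTCA), for the C/EBP-ATF element TGATGNAA (reverse complement TTNCATCA), which ATF4 binds in amino acid response genes, and for the antioxidant response element TGACNNNGC (reverse complement GCNNNGTCA), which NRF2 binds. The stretches below run from 250 bases before the start site to 20 bases into the transcript, 5′ to 3′ on the strand of the gene, with every match in capitals. They were chosen after the values had been seen. *Slc7a11* and *Slc1a4* are the 2 genes with a C/EBP-ATF match, *Slc7a1* and *Slc43a1* hold matches of 2 motifs each and moved in opposite directions, and *Slc1a3* and *Slc38a4* had the largest decreases.
Slc7a11 (chr3:50443594-50443863, minus strand): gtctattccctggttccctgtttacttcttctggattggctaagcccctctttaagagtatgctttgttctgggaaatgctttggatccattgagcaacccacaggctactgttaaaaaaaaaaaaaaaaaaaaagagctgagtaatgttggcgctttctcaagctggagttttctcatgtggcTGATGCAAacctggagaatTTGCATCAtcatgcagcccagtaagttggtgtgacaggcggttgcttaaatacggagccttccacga
Slc1a4 (chr11:20332694-20332963, minus strand): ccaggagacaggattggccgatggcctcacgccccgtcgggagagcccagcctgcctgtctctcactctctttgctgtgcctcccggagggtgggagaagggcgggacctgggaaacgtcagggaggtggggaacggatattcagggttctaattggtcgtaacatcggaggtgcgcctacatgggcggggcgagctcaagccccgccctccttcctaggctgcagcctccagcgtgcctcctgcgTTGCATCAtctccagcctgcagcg
Slc7a1 (chr5:148399885-148400154, minus strand): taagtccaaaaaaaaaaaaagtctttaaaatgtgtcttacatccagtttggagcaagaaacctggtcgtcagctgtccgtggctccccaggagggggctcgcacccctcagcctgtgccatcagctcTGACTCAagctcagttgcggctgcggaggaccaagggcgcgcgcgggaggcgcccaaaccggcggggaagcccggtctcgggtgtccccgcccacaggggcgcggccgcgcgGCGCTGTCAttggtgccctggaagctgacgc
Slc43a1 (chr2:84840073-84840342, plus strand): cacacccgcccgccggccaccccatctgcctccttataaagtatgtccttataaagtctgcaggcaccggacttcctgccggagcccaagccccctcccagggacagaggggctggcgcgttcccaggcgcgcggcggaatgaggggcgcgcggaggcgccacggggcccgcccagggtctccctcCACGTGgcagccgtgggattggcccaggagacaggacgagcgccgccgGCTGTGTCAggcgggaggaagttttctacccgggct
Slc1a3 (chr15:8710788-8711057, minus strand): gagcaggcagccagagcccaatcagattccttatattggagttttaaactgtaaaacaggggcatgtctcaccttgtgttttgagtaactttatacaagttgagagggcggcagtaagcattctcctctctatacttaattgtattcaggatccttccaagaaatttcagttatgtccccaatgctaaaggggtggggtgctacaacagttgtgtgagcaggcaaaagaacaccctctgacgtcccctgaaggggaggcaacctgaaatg
Slc38a4 (chr15:97055937-97056206, minus strand): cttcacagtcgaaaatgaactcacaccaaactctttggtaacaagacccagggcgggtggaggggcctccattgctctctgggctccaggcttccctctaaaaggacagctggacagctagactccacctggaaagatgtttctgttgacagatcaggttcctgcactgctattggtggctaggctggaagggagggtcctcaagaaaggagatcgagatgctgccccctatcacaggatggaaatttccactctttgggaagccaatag

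In the *Slc7a11* window, TGATGCAA begins 66 bases before the start site and TTGCATCA, its reverse complement, 47 bases before it. The *Slc1a4* window holds TTGCATCA from 4 bases before the start site. In *Slc7a1*, the AP-1 site TGACTCA begins 123 bases and GCGCTGTCA 11 bases upstream. The start site of the *Slc43a1* window lies 1473 bases from the annotated 5′ end, with an E-box 64 bases and GCTGTGTCA 16 bases before it. No letters of the 4 motifs were found in the windows of *Slc1a3* and *Slc38a4*. An E-box was present in 8 of the 41 windows, beside 7.15% of the 32851 windows of all genes, and an AP-1 site in 5, beside 5.20%. The C/EBP-ATF element was present in 2 of 41, beside 3.97% of all windows, and the antioxidant response element in 7 of 41, beside 12.4%. The E-box was found in *Slc1a6*, *Slc1a7*, *Slc36a1*, *Slc38a5*, *Slc38a7*, *Slc43a1*, *Slc6a3* and *Slc7a14*, of which *Slc43a1* fell, *Slc1a6*, *Slc38a7* and *Slc6a3* rose and *Slc36a1* did not pass the test. The others were below the filter. The AP-1 site was found in *Slc3a1*, *Slc6a5*, *Slc6a14*, *Slc6a17* and *Slc7a1*, of which *Slc6a14* was below the filter and the others rose, as 36.2% of all tested genes did. Of the genes that rose here, *Slc3a1*, *Slc6a3* and *Slc6a5* entered the test through their senescent values. These matches are a description of the letters in the windows.

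The heavy chain *Slc3a2* (ENSMUSG00000010095, chromosome 19 from 8706882 to 8723369), partner of *Slc7a5*, *Slc7a6*, *Slc7a7*, *Slc7a8*, *Slc7a10* and *Slc7a11*, was at 116, 125 and 125 CPM in the control libraries and 178, 181 and 152 CPM in the senescent ones, replicates in order. The groups did not overlap, and the log2 fold change was 0.48 ± 0.08 (SE; edgeR adjusted p = 0.000933). *Slc3a1*, the heavy chain of kidney and gut cystine transport, was low in control cells, at 19, 25 and 8 counts against 53, 53 and 63 counts in senescent libraries. It lies over *Prepl*, which had between 2416 and 5569 counts, so part of its reads may belong to that gene.

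Of the light chains, *Slc7a5* (ENSMUSG00000040010, chromosome 8 from 121881150 to 121907694), which carries leucine and other large neutral amino acids, was at 58.4, 61.3 and 63.8 CPM in the control libraries and 57.8, 62.7 and 52.0 CPM in the senescent ones. These values overlapped, with a log2 fold change of -0.09 ± 0.08 (SE; edgeR adjusted p = 0.343). *Slc7a5* shares its locus with a second annotated gene, *Gm20388*, and reads could have been split between them. *Gm20388* had 4907 to 8518 counts, more than *Slc7a5* in every library (2912 to 4971 counts). *Slc7a6*, which exchanges cationic for neutral amino acids, fell from 99.9, 93.1 and 92.3 CPM to 59.3, 59.8 and 64.5 CPM, with no overlap and a log2 fold change of -0.64. By contrast *Slc7a8* (ENSMUSG00000022180, chromosome 14 from 54722216 to 54781886), another carrier of neutral amino acids, rose from 2.91, 2.88 and 3.76 CPM to 7.43, 8.47 and 7.05 CPM, a log2 fold change of 1.27 ± 0.13 (SE; edgeR adjusted p = 7.64e-05). *Slc7a7*, related to *Slc7a6*, was at 3.01 ± 0.134 CPM and 3.18 ± 0.354 CPM and did not pass the test. Its span overlaps *Oxa1l*, which had 1659 to 2407 counts, so part of its reads may belong to that gene.

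The light chains together summed to 44.0 to 45.1 CPM per kb in control and 38.1 to 39.6 CPM per kb in senescent libraries, while *Slc3a2* alone was at 41.2 ± 1.80 and 57.5 ± 5.44 CPM per kb. The ratio of summed light chains to *Slc3a2* was 1.08 ± 0.0607 in control and 0.675 ± 0.0613 in senescent cells (SD, n = 3 per group), and the groups did not overlap. Within the light chains, *Slc7a11* held 0.703% to 0.787% of the length-scaled level in control and 7.63% to 9.74% in senescent libraries. *Slc7a8* held 1.60% to 2.09% in control and 4.57% to 5.30% in senescent libraries. The share of *Slc7a6* was 55.5% to 59.4% in control and 40.4% to 45.2% in senescent libraries, and that of *Slc7a5* overlapped between groups, at 34.9% to 38.6% and 36.7% to 42.7%. The light chain sums, their ratio to *Slc3a2* and these shares leave out any *Slc7a5* reads counted to *Gm20388*, and would change with them.

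**Figure D3:**
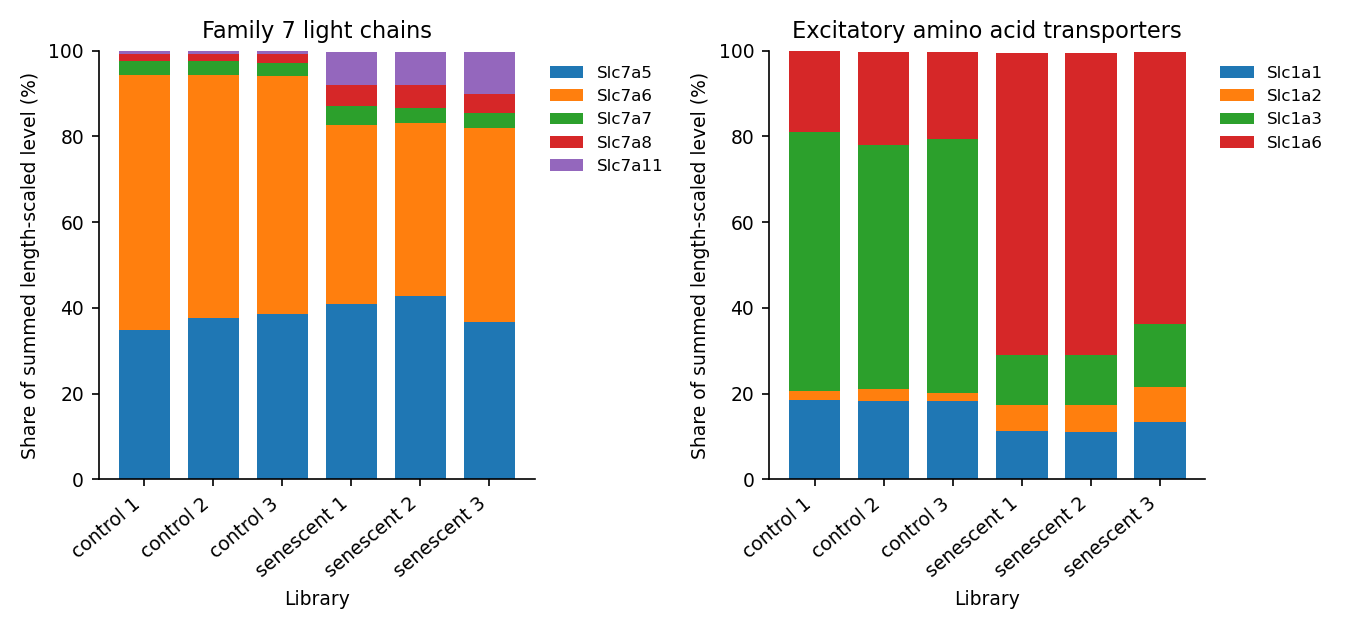
Share (%) of each gene in the summed length-scaled level of the family 7 light chains (left) and of the excitatory amino acid transporters of family 1 (right), with 1 bar per library. Genes under 0.5% on average are not drawn, and reads counted to *Gm20388* at the *Slc7a5* locus are left out. *Slc7a11* is a thin band in control and a wider one in senescent libraries, and *Slc1a3* gives way to *Slc1a6* as the widest band.

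Cationic amino acid transporters bring arginine and lysine into cells without a heavy chain. *Slc7a1* (ENSMUSG00000041313, chromosome 5 from 148327410 to 148399904), the widespread one, was at 90.0, 92.1 and 89.4 CPM in the control libraries and 143, 146 and 136 CPM in the senescent ones, with no overlap and a log2 fold change of 0.65 (SE 0.05, edgeR adjusted p = 1.88e-05). *Slc7a2* (ENSMUSG00000031596, chromosome 8 from 40862396 to 40922308), known for arginine uptake in activated macrophages and liver, rose from 26.7, 24.8 and 23.1 CPM to 50.8, 48.4 and 57.3 CPM, a log2 fold change of 1.07 ± 0.09 (SE; edgeR adjusted p = 1.75e-05). *Slc7a3* went the other way, from 8.48, 10.2 and 9.56 CPM to 6.28, 6.42 and 5.84 CPM, a log2 fold change of -0.61. In length-scaled level the 5 genes of this group summed to 17.1 to 17.8 in control and 26.1 to 26.6 in senescent libraries, and *Slc7a1* held 68.9% to 69.6% and 69.5% to 73.0% of it. *Slc7a4* was at 0.519 ± 0.122 and 0.610 ± 0.121 CPM and did not pass the test, and its span overlaps *P2rx6*, which had 82 to 134 counts.

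The excitatory amino acid transporters take up glutamate and aspartate and are best known in brain, and all 4 tested members changed, where 70.3% of all tested genes did. *Slc1a3* (ENSMUSG00000005360, chromosome 15 from 8634124 to 8710764), the glutamate transporter of astrocytes, had the largest decrease of all tested transporters. It was at 56.1, 51.7 and 52.3 CPM in the control libraries and 5.54, 5.36 and 6.14 CPM in the senescent ones, replicates in order. Every senescent value was far below every control value, and the log2 fold change was -3.23 ± 0.08 (SE; edgeR adjusted p = 3.83e-08). *Slc1a1* (ENSMUSG00000024935, chromosome 19 from 28835049 to 28913960), the glutamate transporter found outside the brain as well, fell from 12.5, 11.9 and 11.7 CPM to 3.86, 3.71 and 4.08 CPM, a log2 fold change of -1.63 ± 0.08 (SE). A processed pseudogene, *Gm5822*, lies within *Slc1a1* and held between 131 and 282 counts. The other 2 rose from low levels, *Slc1a2* from 3.01, 3.75 and 2.66 to 4.55, 4.48 and 5.34 CPM and *Slc1a6* from 4.27, 4.80 and 4.39 to 8.28, 7.99 and 6.56 CPM, with log2 fold changes of 0.61 and 0.76. The summed length-scaled level of these transporters was 10.4 to 10.9 CPM per kb in control and 4.94 to 5.61 in senescent libraries. *Slc1a3* held 57.1% to 60.4% of it in control and 11.6% to 14.5% in senescent libraries, and *Slc1a6* 18.8% to 21.7% and 63.6% to 70.6%.

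The remaining members of family 1 exchange small neutral amino acids, and they moved in opposite directions. *Slc1a5* (ENSMUSG00000001918, chromosome 7 from 16781346 to 16798274), a main route of glutamine into dividing cells, was at 96.6, 98.7 and 99.3 CPM in the control libraries and 61.5, 61.5 and 53.2 CPM in the senescent ones, a log2 fold change of -0.74 ± 0.07 (SE; edgeR adjusted p = 4.14e-05). *Slc1a4* (ENSMUSG00000020142, chromosome 11 from 20302180 to 20332713), which carries alanine, serine and cysteine, was at 75.7, 76.8 and 80.0 CPM in the control libraries and 114, 113 and 115 CPM in the senescent ones. Its log2 fold change was 0.56 ± 0.05 (SE; edgeR adjusted p = 3.43e-05). Neither gene overlapped between groups. Their summed length-scaled level did, at 42.5 to 44.3 in control and 42.2 to 43.9 CPM per kb in senescent libraries. Hence *Slc1a4* held 45.2% to 46.0% of this sum in control and 66.1% to 69.7% in senescent libraries.

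Family 38 was the most abundant family in control cells by summed length-scaled level, at 127 to 130.2 CPM per kb against 96.2 to 98.2 in senescent libraries, and 2 of its 8 tested genes, *Slc38a1* and *Slc38a7*, were called higher and 4 lower, beside 36.2% and 34.1% of all tested genes. *Slc38a2* (ENSMUSG00000022462, chromosome 15 from 96687394 to 96699698), which cells induce when amino acids are short, was at 348, 330.1 and 338 CPM in the control libraries and 243, 242 and 287 CPM in the senescent ones. The groups did not overlap, with senescent replicate 3 the nearest to control, and the log2 fold change was -0.40 ± 0.08 (SE; edgeR adjusted p = 0.00229). *Slc38a4* (ENSMUSG00000022464, chromosome 15 from 96994823 to 97055956), an imprinted carrier of neutral amino acids that is abundant in liver and placenta, fell from 11.9, 10.6 and 11.2 CPM to 1.55, 1.70 and 1.92 CPM, a log2 fold change of -2.69 ± 0.11 (SE; edgeR adjusted p = 3.84e-07). *Slc38a1* (ENSMUSG00000023169, chromosome 15 from 96571418 to 96642913), a glutamine carrier, rose from 3.25, 2.78 and 2.98 CPM to 6.86, 6.15 and 6.71 CPM, a log2 fold change of 1.13 ± 0.10 (SE).

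*Slc38a1* and *Slc38a2* are neighbours, 44.5 kb apart on chromosome 15, and had different directions. *Slc38a6* fell from 21.9 ± 0.698 to 11.2 ± 1.03 CPM and *Slc38a10* from 240.1, 273 and 270.2 to 201, 209.7 and 145 CPM, the last value being that of senescent replicate 3. The log2 fold change of *Slc38a10* was -0.50 with all libraries and -0.34 without that one. *Slc38a7*, a lysosomal glutamine carrier, was at 22.4, 23.8 and 25.2 CPM in the control libraries and 33.1, 32.2 and 24.6 CPM in the senescent ones, values that overlapped. It passed the test (edgeR adjusted p = 0.0368) with all libraries, and did not when any library but senescent replicate 3 was left out (0.0650 to 0.123). Without senescent replicate 3, whose value made the groups overlap, the log2 fold change of 0.33 became 0.47 (edgeR adjusted p = 3.19e-06). *Slc38a9*, the lysosomal arginine sensor upstream of mTORC1, was at 20.8 ± 0.623 CPM in the control libraries and 18.2 ± 1.5 CPM in the senescent ones (edgeR adjusted p = 0.0624), and without senescent replicate 3 it passed (0.00114). *Slc38a3*, a glutamine carrier of liver and kidney, was at 3.40 ± 0.412 and 3.32 ± 0.846 CPM.

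Family 36 moves amino acids such as glycine, alanine and proline at lysosomes and at the surface, some of its members with protons. *Slc36a4*, its member with the highest length-scaled level, was at 67.7, 63.7 and 64.4 CPM in the control libraries and 54.1, 56.2 and 66.5 CPM in the senescent ones, replicates in order (edgeR adjusted p = 0.157). The overlap came from senescent replicate 3, and without it the log2 fold change of -0.15 became -0.23 with an adjusted p of 0.000150. *Slc36a1*, the lysosomal member that sits with the mTORC1 machinery, was at 34.8, 34.4 and 35.7 CPM and 39.7, 39.4 and 34.7 CPM (edgeR adjusted p = 0.176). It too passed without senescent replicate 3 (0.00238), with a log2 fold change of 0.19. *Slc36a2*, 19.3 kb from *Slc36a1* on chromosome 11, had 0, 2 and 1 counts in control and 17, 27 and 27 counts in senescent libraries, a ratio of CPM of 17.1 (95% exact interval 5.63 to 85.0) that covers counting error only. Its fitted log2 fold change of 3.96 became 4.75 without control replicate 2.

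Family 43 had no member that rose. *Slc43a1* (ENSMUSG00000027075, chromosome 2 from 84838850 to 84863594), which carries leucine and other large neutral amino acids without sodium, was at 18.4, 18.7 and 18.6 CPM in the control libraries and 3.64, 3.33 and 3.03 CPM in the senescent ones. The log2 fold change was -2.48 ± 0.09 (SE; edgeR adjusted p = 2.22e-07). *Slc43a3* (ENSMUSG00000027074, chromosome 2 from 84936579 to 84958509), which lies 73.0 kb from *Slc43a1* and is known for carrying purine nucleobases, fell from 102, 104 and 101 CPM to 39.6, 38 and 39.1 CPM, a log2 fold change of -1.39 ± 0.05 (SE; edgeR adjusted p = 2.29e-07). Control values were separated from senescent values for both genes. *Slc43a2*, a carrier of the same amino acids as *Slc43a1*, overlapped between groups, at 30.6, 32.6 and 32.1 CPM in control against 34, 33.4 and 30.8 CPM in senescent libraries. Its share of the family's length-scaled level was 10.4% to 11.0% in control and 24.8% to 26.8% in senescent libraries, while the family sum was 29.0 to 29.7 against 12.4 to 12.9 CPM per kb.

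**Figure D4:**
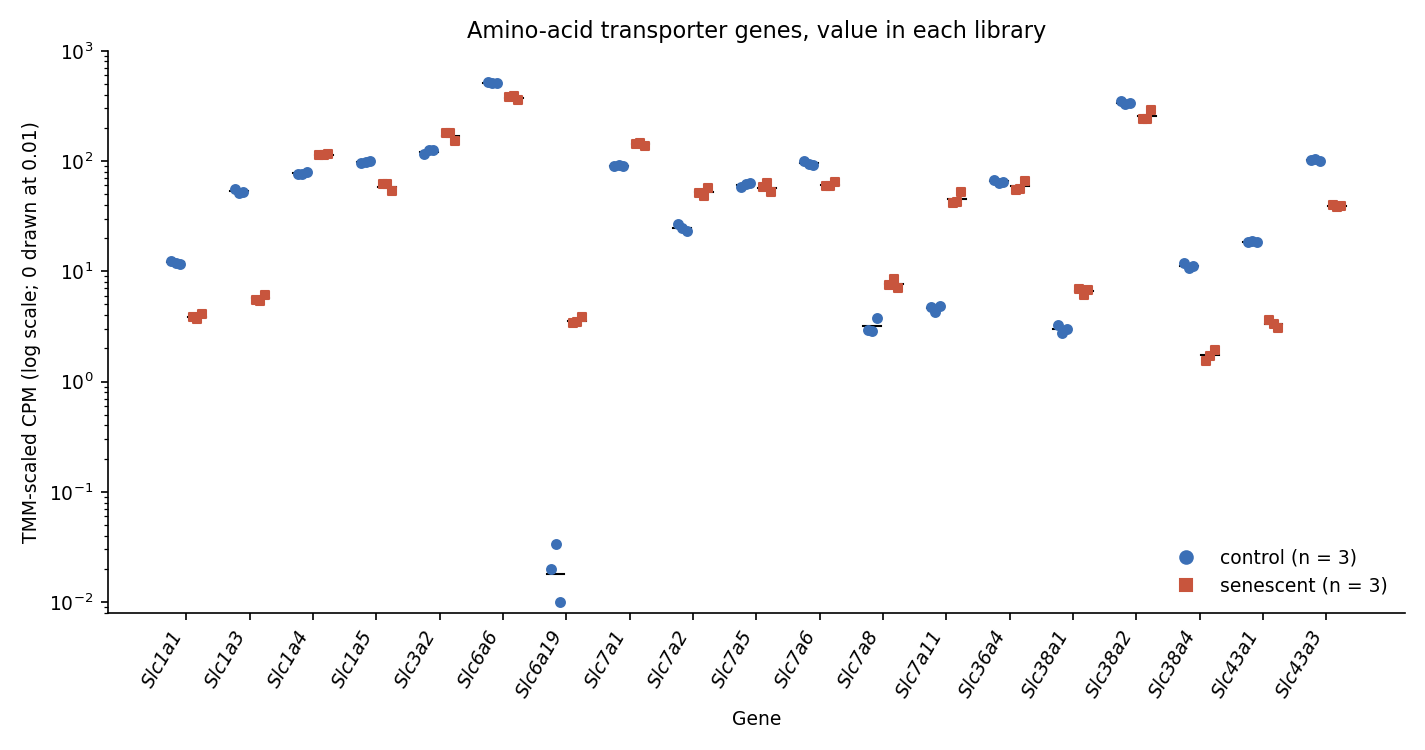
TMM-scaled CPM (log scale) in each library for the transporter genes with a fold change over 2 and a mean of at least 100 counts and for the most abundant or widely expressed members of each family. Circles are control and squares senescent libraries (n = 3 each), black lines are means, and a value of 0 is drawn at 0.01. Groups overlap for *Slc7a5* and *Slc36a4* and are apart for the other genes drawn.

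In family 6, genes that carry osmolytes and energy metabolites held most of the length-scaled level. *Slc6a6* (ENSMUSG00000030096, chromosome 6 from 91684067 to 91759063) was at 519, 505 and 507 CPM in the control libraries and 378, 387 and 360.4 CPM in the senescent ones, a log2 fold change of -0.44 (SE 0.05, edgeR adjusted p = 0.000145). *Slc6a8*, the creatine transporter on chromosome X, rose from 92.4, 93.3 and 92.3 CPM to 181, 182 and 161 CPM, a log2 fold change of 0.92. *Slc6a9*, a glycine transporter, fell from 41.9, 49.7 and 46.9 CPM to 25.5, 28.4 and 19.8 CPM, a log2 fold change of -0.91, and its span overlaps *B4galt2*. *Slc6a17*, a vesicular carrier of neutral amino acids in neurons, rose from 11.1, 11.8 and 12.1 to 16.2, 16.3 and 14 CPM. The groups did not overlap for these 4 genes. By share of the family's length-scaled level, *Slc6a6* held 73.8% to 75.4% in control and 58.4% to 60.5% in senescent libraries and *Slc6a8* 15.9% to 16.1% and 32.0% to 33.2%.

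Most other family 6 genes were at or near 0 in control cells. *Slc6a19* (ENSMUSG00000021565, chromosome 13 from 73679745 to 73704865), the neutral amino acid transporter of kidney and gut, had 1, 2 and 0 counts in control and 188, 273 and 325 counts in senescent replicates 1, 2 and 3, or 3.39, 3.45 and 3.85 CPM in the latter. The ratio of pooled CPM, senescent over control, was 189.6 (95% exact interval 64.7 to 922), an interval for counting error only (edgeR adjusted p = 4.40e-07). With so few control counts the fitted log2 fold change of 7.42 became 8.20 without control replicate 2. An antisense gene over it, *Slc6a19os*, had no control counts and 4, 8 and 11 counts in senescent libraries. Its neighbour *Slc6a18*, 1.72 kb away, had 0, 0 and 0 counts in control and 8, 13 and 13 in senescent libraries and is at least 2.69-fold higher against the limit of 3 counts per library. *Slc6a3*, the dopamine transporter, 83.1 kb from *Slc6a18*, had 0, 1 and 1 counts in control and 18, 21 and 16 in senescent libraries, a ratio of 19.9 (95% exact interval 5.25 to 168).

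*Slc6a15*, a neuronal carrier of branched-chain amino acids and proline, rose from 0.421, 0.318 and 0.0613 CPM to 1.86, 1.58 and 1.86 CPM, with no overlap. *Slc6a12*, the betaine and GABA transporter, had 5, 5 and 2 counts in control and 63, 74 and 56 in senescent libraries, a log2 fold change of 3.54. The transporters of noradrenaline (*Slc6a2*), serotonin (*Slc6a4*) and glycine (*Slc6a5*) had at most 10 counts in any control library and 19 to 42 counts in senescent libraries, and each was called higher. All 5 control counts of *Slc6a5* came from replicate 1, and its fitted log2 fold change of 3.20 became 7.34 without that library and 2.55 without control replicate 2. These 5 genes, with *Slc6a3*, *Slc6a19*, *Slc36a2* and *Slc3a1*, are the 9 that entered the test through their senescent values, so their calls are not support for a difference in the families. *Slc6a7*, the proline transporter of the brain, was at 0.503 ± 0.0874 and 0.613 ± 0.101 CPM and did not pass the test.

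Below the filter lay 16 genes, with at most 19 counts in any library. In 9 of them every senescent library exceeded every control library in CPM, as did 21.1% of the 7450 protein-coding genes below the filter, and in none was every senescent library lower (1.29% of those genes). Among the 16, 10 genes had no control count at all, so none of these 10 could be lower. A count in every senescent library was found for 7 of these 10, beside 19.7% of the 5522 protein-coding genes at 0 in control. Both backgrounds include genes without counts in any library, and the deepest libraries were senescent. *Slc6a14*, a broad carrier of neutral and cationic amino acids in epithelia, had 14, 19 and 11 counts in senescent libraries, and is at least 3.63-fold higher. *Slc7a10*, a carrier of small neutral amino acids and D-serine, had 5, 8 and 15 counts and is at least 2.15-fold higher, but it lies over *Lrp3*, which had 253 to 906 counts. *Slc6a13*, a GABA transporter, had 3, 5 and 9 counts, at least 1.30-fold higher. *Slc6a11*, *Slc7a14*, *Slc7a15* and *Slc36a3*, also without control counts, had no senescent mean above the limit of 3 counts per control library, so no fold is given. *Slc7a13*, with 0, 2 and 0 control and 4, 11 and 6 senescent counts, and *Slc38a8*, with 0, 1 and 0 control and 6, 2 and 6 senescent counts, were higher in each senescent library. *Slc1a7*, *Slc7a9*, *Slc38a5* and *Slc38a11* overlapped between groups with at most 7 counts per library.

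Genes of amino acid metabolism around the transporters were counted from lists written down with earlier results known, and the shares over all tested genes to set beside each list are 36.2% higher and 34.1% lower. Of 25 genes of the amino acid response through ATF4, with *Atf4* itself among them, 7 were higher and 8 lower. Their median log2 fold change was -0.04. *Atf3*, a stress-induced transcription factor, rose from 0.694 ± 0.0445 to 10.1 ± 0.454 CPM and *Pycr1*, a proline synthesis enzyme, fell from 81.0 ± 2.01 to 21.7 ± 1.39 CPM. Of 16 genes of glutathione and transsulfuration, 7 were higher and 7 lower. *Gclc* and *Gclm*, the subunits of the enzyme that starts glutathione synthesis, rose, with log2 fold changes of 1.46 and 1.2, and *Ahcy*, which breaks down S-adenosylhomocysteine, fell by 1.17 on the log2 scale.

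Among 20 arginine and polyamine genes, 18 were tested, of which 10 were higher and 6 lower. Their median log2 fold change was 0.41. *Ass1*, an enzyme that remakes arginine from citrulline, rose from 70.2 ± 1.88 to 262 ± 18.8 CPM and *Sat1*, which acetylates spermidine and spermine, from 109.7 ± 5.44 to 206 ± 20.6 CPM. Among the 6 lower, *Oat* fell from 469 ± 9.75 to 259 ± 7.39 CPM and *Paox* from 5.95 ± 0.272 to 2.58 ± 0.187 CPM. Breakdown of branched-chain amino acids had 3 of 23 genes higher and 15 lower, and their median was -0.62 on the log2 scale. *Pccb*, a subunit of propionyl-CoA carboxylase, fell from 56.8 ± 0.509 to 18.2 ± 1.59 CPM. Of 33 tested genes that sense amino acids for mTORC1, 10 were higher and 12 lower. *Rragd*, a Rag GTPase of the lysosome, rose from 0.347 ± 0.0239 to 12.0 ± 1.70 CPM, and *Sesn1*, a leucine sensor family member, fell from 24.0 ± 0.726 to 10.8 ± 0.549 CPM. Enzymes of glutamine, glutamate and aspartate had 5 of 17 tested genes higher and 6 lower, and transporters of other families 6 of 19 higher and 6 lower.

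Markers of other cell types moved between the groups as well. Fibroblast genes were abundant in both, and the 12 listed summed to 65428 to 67413 CPM in control and 49008 to 54386 CPM in senescent libraries. *Fn1*, which did not pass the test, dominated both sums, at 45655 and 43858 CPM. Of the 12, 3 were higher and 7 lower, with *Dcn* rising from 56.6 to 643 CPM and *Col1a1* falling from 4435 to 763 CPM. The 10 chondrocyte markers summed to 5382 to 5925 CPM in control and 368 to 454 CPM in senescent libraries, and 9 of 9 tested fell. The 10 neuron markers summed to 41.5 to 43.7 and 53.4 to 63.3 CPM, with 7 of 8 tested higher and 1 lower, and with 4 at 0 in control. Of these, *Rbfox3* and *Snap25* were at 0 in control and at 0.120 and 0.303 CPM in senescent cells. The 1 lower neuron marker, *Map2*, fell from 26.3 to 8.11 CPM. The 10 keratinocyte markers summed to 16.5 to 17.2 and 30.8 to 30.9 CPM, with 3 of 6 tested higher and 1 lower. *Dsp* rose from 0.110 to 7.09 CPM and *Cdh1* from 0.477 to 1.91 CPM, and the other that rose had no control count. The genes that rose made up most of the senescent sum. *Trp63*, most of the control sum, fell from 13.1 to 4.17 CPM, and *Krt14* was at 0.0772 and 0.0883 CPM. The 9 macrophage markers summed to 6.28 to 7.13 and 14.7 to 17.5 CPM, with 6 of 7 tested higher. Endothelial markers summed to 83.4 to 88.0 and 17.3 to 17.5 CPM, a sum dominated in control by *Erg* (80.4 and 7.47 CPM), while 5 of 7 tested were higher and 2 lower. Adipocyte markers summed to 98.9 to 104 and 56.0 to 62.1 CPM, mostly from *Pparg* and *Fabp4*, which fell, while 3 of 5 tested were higher. Skeletal muscle markers summed to 18 to 22.8 and 17.6 to 30.4 CPM (2 of 4 tested higher, 0 lower), and Schwann cell and melanocyte markers to 78.4 to 83.8 and 62.7 to 66.8 CPM (3 of 9 tested higher, 4 lower). The part of these cell types in the transporter values was not tested.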

How the data were processed

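Libraries were made from 200 ng of total RNA with a stranded mRNA kit. The deposited values are whole-number counts per gene, which the authors made from paired reads of 100 bases with STAR on mm10 and with Subread (named in the submitters' processing notes). The strand setting and the treatment of reads with several matches were not given in the sources used here, so reads of overlapping genes may be shared or split. The deposited gene length, used as length in bases, is that of the gene model.

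Counts were tested in R 4.3.3 with edgeR 4.0.16 (filterByExpr, TMM scaling, quasi-likelihood test, Benjamini-Hochberg adjustment over all tested genes), senescent against control, 3 libraries each. Length-scaled levels are TMM-scaled CPM divided by length in kb. DESeq2 1.42.0, other scalings and filters, a replicate block and leaving out each library were alternatives. The procedure was tested on simulated data. Total counts ranged from 50288454 to 82229553, and intervals (95%, exact) cover counting error only.

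Genes described with full statistics were the tested members averaging 100 counts or more whose adjusted p was under 0.05 and whose level changed over 2-fold, the most abundant members of each family, and *Slc3a2*, *Slc7a5*, *Slc7a11*, *Slc1a5*, *Slc38a2* and *Slc7a1*. From the lists of amino acid metabolism, genes among the 3 with the smallest p in each direction were named, and single cell type markers were picked for naming with their values in view. The members and lists were chosen with earlier results of these data known. A gene without a control count is included in the counts but not reported here by name.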

Additional observations from a re-analysis of the deposited data

How the results depend on the processing

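Of the 34 transporters called in either direction, 33 kept their call under every alternative in which they were tested, and *Slc38a7* did not. It lost its call with the replicate block (adjusted p = 0.0710) and without any single library but senescent replicate 3. Scaling by library size alone, DESeq2, RLE scaling and protein-coding genes alone left the counts of higher and lower transporters within 1.5 times. The number higher at an adjusted p under 0.05 was 12 instead of 21 when at least 10 counts were required in every library, where 34 transporters were tested. By the limit of the study methods 13 were higher, against 4 with that requirement and 21 with no filter beyond 1 count, where 58 were tested. Fewer or more genes near 0 in control enter the test under these settings. Leaving out 1 library gave 20 to 23 higher and 13 to 15 lower at an adjusted p under 0.05, and 13 to 14 higher and 5 to 6 lower by the limit of the study methods.

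No called transporter changed direction. Among those not called, *Slc7a7* went from 0.07 to -0.011 on the log2 scale without senescent replicate 1. *Slc38a3* went from -0.05 to 0.032 by library size alone and to 0.0033 under the minimum of 10 counts, and it ranged from -0.20 to 0.17 when single libraries were left out. The cause was not tested. *Slc36a1* passed by library size alone (0.0416) and *Slc38a9* with protein-coding genes alone (0.0455), adjusted p-values by edgeR's quasi-likelihood test.

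The deviations of same-numbered control and senescent libraries from their group means correlated at -0.15, 0.14 and -0.12. Those of differently numbered libraries correlated at -0.21 to 0.26. With only 3 libraries behind each group mean, these values cannot decide whether the replicate numbers pair the samples. With the replicate block 20 transporters were higher and 13 lower, and 13 and 5 by the limit of the study methods. Genes under 20 counts are limited by depth.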
